A study of Homo sapiens with 27 samples.

Results

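The effect of TADA2B knockout on gene expression was measured in A375 cells under vemurafenib, from 6 knockout libraries and 3 control libraries among the 27 libraries of the study. A375 is an established human melanoma line whose BRAF kinase carries an activating mutation, and vemurafenib inhibits the mutant kinase. The 6 knockout libraries were all those labelled TADA2B KO that had received 1 µM vemurafenib for 24 h, 3 with guide 1 (TADA2B_sg1) and 3 with guide 2 (TADA2B_sg2). The 3 control libraries had the same dose and time and a control guide, which the titles call GFP, the protocol calls non-targeting and the genotype label gives as WT. The other 18 libraries, with DMSO or with 20 nM of the MEK inhibitor trametinib for the same time, entered the fit as further groups of 3. All cells were grown in DMEM with 10% FBS, and the libraries were made from polyA RNA. Nothing in the labels tells separate cultures from repeats of 1 culture, or a pool of edited cells from a clone. The p-values therefore measure only how far these libraries spread, and that spread may be technical.

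TADA2B is an adaptor subunit of SAGA, a large coactivator complex that acetylates histone H3 at promoters through KAT2A or KAT2B and removes ubiquitin from histone H2B through USP22. TADA2B belongs to the acetyltransferase module and helps to place the enzyme on nucleosomes. In melanoma cells with mutant BRAF, inhibitors of the pathway silence growth factor signalling to the nucleus, and cells can move between a pigmented state driven by MITF, a neural crest-like state marked by NGFR and an undifferentiated state marked by AXL and EGFR. The study set 3 cell populations against 3 treatments, so the knockout effect under vemurafenib can be compared with the knockout effect in DMSO and under trametinib.

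The 9 vemurafenib libraries held between 68126448 and 86284221 counts. No library was a copy of another: within a group, each pair differed beyond counting noise (chi-square over degrees of freedom of 3.31 to 13.2). Both pairs with replicate 3 of guide 2 gave the highest ratios, 13.2 and 8.92. The first principal component held 59.8% of the variance and separated the 6 knockout libraries from the 3 control libraries. The second held 7.26% and separated the guides. SOX10 and MITF, which define the melanocyte lineage, were expressed in all 9 libraries, at 267 to 541 CPM and 82.3 to 97.9 CPM in knockout libraries, against 1064 to 1121 CPM and 145 to 152 CPM in control libraries. The pigment cell markers PMEL, MLANA and TYR were low in every library, at most 2.21 CPM. TYRP1 of the same marker list was low too but higher in knockout libraries, at 1.25 to 2.27 CPM against 0.71 to 0.972 CPM in control libraries. DCT of that list had 65.8 to 96.9 CPM in knockout libraries and 978 to 999 CPM in control libraries. CPM here are counts scaled to the TMM-normalised library total, as edgeR gives them.

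Promoters of 6 genes from the groups that changed are shown because each holds a match to a motif tied to its group. Each stretch is the 250 bases before the RefSeq transcription start on GRCh38.p14, read 5′ to 3′ on the gene's strand, with the match in capitals. The interferon-stimulated response element was searched as GAAA, any 2 bases and GAAA, the AP-1 site as TGANTCA and an M-box-like E-box as TCATGTG, each on both strands. Where RefSeq gives several starts, the start with the most matches is shown. IFI27 lies at chr14:94110486-94110735 on the plus strand, RSAD2 at chr2:6877527-6877776 on the plus strand and BST2 at chr19:17405631-17405880 on the minus strand. DCT lies at chr13:94479683-94479932, MMP10 at chr11:102780629-102780878 and LAMB3 at chr1:209651375-209651624, all on the minus strand.
IFI27: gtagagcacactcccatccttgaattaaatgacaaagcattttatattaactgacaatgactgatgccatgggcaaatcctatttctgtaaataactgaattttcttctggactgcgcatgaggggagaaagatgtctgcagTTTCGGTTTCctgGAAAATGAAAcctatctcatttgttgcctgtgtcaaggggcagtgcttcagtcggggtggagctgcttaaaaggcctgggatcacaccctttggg
RSAD2: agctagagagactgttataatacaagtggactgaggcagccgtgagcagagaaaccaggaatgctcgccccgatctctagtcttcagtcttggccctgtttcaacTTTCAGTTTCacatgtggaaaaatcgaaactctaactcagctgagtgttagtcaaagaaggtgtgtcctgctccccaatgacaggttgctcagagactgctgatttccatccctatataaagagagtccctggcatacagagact
BST2: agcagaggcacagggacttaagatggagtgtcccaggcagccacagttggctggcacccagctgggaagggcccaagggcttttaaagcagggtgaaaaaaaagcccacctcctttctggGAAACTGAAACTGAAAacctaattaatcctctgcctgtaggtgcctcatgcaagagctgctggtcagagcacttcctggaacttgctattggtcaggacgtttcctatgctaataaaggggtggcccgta
DCT: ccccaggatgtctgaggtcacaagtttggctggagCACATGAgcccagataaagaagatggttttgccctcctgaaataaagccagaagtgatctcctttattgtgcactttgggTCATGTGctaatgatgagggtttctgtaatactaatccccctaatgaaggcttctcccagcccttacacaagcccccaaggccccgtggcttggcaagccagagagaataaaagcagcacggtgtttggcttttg
MMP10: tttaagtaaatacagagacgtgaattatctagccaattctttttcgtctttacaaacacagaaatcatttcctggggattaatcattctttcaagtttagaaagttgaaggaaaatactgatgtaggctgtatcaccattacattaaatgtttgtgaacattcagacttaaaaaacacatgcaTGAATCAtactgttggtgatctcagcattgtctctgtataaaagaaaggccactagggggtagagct
LAMB3: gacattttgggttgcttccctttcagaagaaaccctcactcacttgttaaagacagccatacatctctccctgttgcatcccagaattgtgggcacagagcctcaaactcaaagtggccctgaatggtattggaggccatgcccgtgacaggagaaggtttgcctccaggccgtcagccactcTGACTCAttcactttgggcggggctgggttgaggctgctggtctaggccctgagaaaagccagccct
The response element matches began 108 and 95 bases before the start of IFI27, 145 before that of RSAD2, and 130 and 124 before that of BST2, where the matches overlap. The E-box matches of DCT began at 215 and 135 bases before its start, and the AP-1 matches of MMP10 and LAMB3 at 67 bases. The response element was present in 22 of the 34 interferon response genes that entered this share (64.7%), against 1061 of all 35116 promoters (3.02%). The AP-1 motif was present in 8 of 21 keratinocyte and hemidesmosome genes (38.1%) and in 5 of 18 protease genes (27.8%), against 2308 of all promoters (6.57%). The E-box was present in 7 of 23 melanocyte differentiation genes (30.4%), against 886 of all promoters (2.52%). Only 21 of 40 listed keratinocyte and hemidesmosome genes and 18 of 30 listed protease genes entered these shares. The AP-1 matches of these lists include IVL and SPRR1B, with 0 counts in the 9 vemurafenib libraries, and MMP7, which was not tested. A listed gene counted if any of its starts matched, while the share of all promoters counted each start, so the shares are not strictly comparable. A match describes the letters of the promoter and says nothing of a factor bound there.

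TADA2B itself (chromosome 4, 7041899 to 7057952 on hg38, plus strand) was still transcribed in the knockout cells. Its level was 32.2, 31.8 and 33.8 CPM with guide 1 and 27.6, 29.3 and 28.6 CPM with guide 2, against 42.5, 43.7 and 45.2 CPM in control libraries. Every knockout library lay under every control library, and the log2 fold change was −0.52 ± 0.036 (SE), with an adjusted p of 1.01e-17 by edgeR's quasi-likelihood test. In DMSO the same genotypes had 29.5 CPM in knockout cells and 31.2 CPM in control cells on average. A guide edits the genomic sequence and need not remove the transcript, so this level does not measure loss of the protein.

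Under vemurafenib, knockout changed genes in both directions in similar number. Of 25199 genes tested, 14004 were called at an adjusted p under 0.05 (55.6%), 6870 higher in knockout cells (27.3%) and 7134 lower (28.3%). Changes of at least 2-fold were seen for 2134 genes that rose (8.47%) and 1210 that fell (4.80%). The median log2 fold change of all genes was −0.015 after normalisation by TMM, and each change is relative to it. Scaling by plain library totals moved that median to 0.096 and the split of calls to 9125 higher and 5006 lower, or 64.6% higher against 49.1%, so calls close to 0 have no direction apart from the scaling. TMM factors were 1.043 to 1.072 in knockout libraries and 0.9636 to 0.9849 in control libraries. Of all 14004 called genes, 10904 (77.9%) were called in the same direction with each guide. Of the 3344 genes called at 2-fold or more, 2772 (82.9%) were. For 2860 of the 3344 (85.5%) no knockout library overlapped a control library. These genes were selected on the mean of the same libraries, which favours both agreement of the guides and lack of overlap. The share without overlap was not counted over all genes tested. In a bulk library, fewer cells in a state and less RNA per cell cannot be told apart.

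Among the most changed protein-coding genes, the rises included epithelial, protease, signalling and neuronal genes that were low in control cells. COL17A1, the transmembrane collagen of hemidesmosomes, had 21.5, 21.3 and 22.5 CPM with guide 1 and 24.5, 24.9 and 24.7 CPM with guide 2, against 0.589, 1.03 and 0.600 CPM in control libraries. Its log2 fold change was 4.99 ± 0.10 (SE), the highest among the genes named by this ranking. The guides did not overlap for it, but their difference was not called. MAP2, a microtubule protein of neuronal dendrites, had 18.7, 18.2 and 19.0 CPM with guide 1 and 30.2, 32.1 and 31.5 CPM with guide 2, against 1.14, 0.819 and 0.984 CPM in control libraries, a log2 fold change of 4.61 ± 0.11. Guide 2 cells stood well above guide 1 cells. ANKRD1, a nuclear ankyrin-repeat protein widely used as a YAP target, rose by 4.23 ± 0.091 on the log2 scale, at 14.1 to 22.5 CPM in knockout libraries and 0.866 to 1.05 CPM in control libraries. DIO2, the enzyme that converts thyroxine to the active thyroid hormone, had 44.9 to 71.3 CPM in knockout libraries and 3.81 to 3.88 CPM in control libraries, with a log2 fold change of 3.88 ± 0.059.

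The remaining rises of that ranking had log2 fold changes between 3.68 and 4.89. They included ELFN2, a synaptic adhesion protein, MMP12, the macrophage metalloelastase, and GPRC5C, an orphan receptor. They also included SFN, an epithelial 14-3-3 protein, SGMS2, a sphingomyelin synthase, EPHA5, an ephrin receptor, and LIPH, a phospholipase that makes lysophosphatidic acid. Every one of the 12 rises was called in DMSO and under trametinib in the same direction, where 29.3% and 27.1% of all genes were called higher. EPHA5 overlaps a pseudogene of RPL6 with far more counts than its own, on the opposite strand, and since the strand setting of the counting is not given, its value is less certain.

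DCT and PCSK2 had the steepest falls of the ranking. DCT, the dopachrome tautomerase of melanin synthesis, had 93.8, 96.9 and 95.0 CPM with guide 1 and 67.7, 65.8 and 70.7 CPM with guide 2, against 978, 978 and 999 CPM in control libraries. Its log2 fold change was −3.61 ± 0.027 (SE), with an adjusted p of 3.76e-56 by edgeR. DCT was almost absent without drug, at 0.224 CPM in knockout cells and 0.938 CPM in control cells treated with DMSO, so the vemurafenib libraries compare a drug-induced level. PCSK2, a convertase that matures neuropeptides, had 4.30 to 7.91 CPM in knockout libraries and 64.9 to 70.7 CPM in control libraries, a log2 fold change of −3.44 ± 0.069. CD36, a fatty acid transporter, had 5.47 to 7.23 CPM in knockout libraries and 47.4 to 54.2 CPM in control libraries, a log2 fold change of −3.08 ± 0.057. The interleukin gene IL24, first described in differentiating melanoma cells, fell by 2.64 on the log2 scale, to 5.49 to 12.7 CPM in knockout libraries, against 46.0 to 57.0 CPM in control libraries.

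The other 8 falls of the ranking ran from −3.27 to −2.66 on the log2 scale. They included WIPF3, an actin regulator, and FAT3, an atypical cadherin. SV2C, RIMS2 and RGS8, genes of synaptic vesicles, release sites and G-protein signalling in neurons, were also among them. FLRT1, an adhesion protein, UCN2, a urocortin, and ANGPTL7, a secreted angiopoietin-like protein, belong here too. UCN2, ANGPTL7 and FLRT1 overlap PFKFB4, MTOR and MACROD1, and SV2C overlaps a RAP1B pseudogene, each with more counts than they had, so reads of those genes could enter their values. RIMS2 overlaps a pseudogene on its own strand, whose counts were 59.0% of its own. The knockout effect of ANGPTL7 was not called in DMSO, where its mean was 0.0589 CPM in knockout cells and 0.065 CPM in control cells. The other 11 falls were called in DMSO and all 12 under trametinib, where 28.6% and 28.8% of all genes were called lower.

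**Figure D1:**
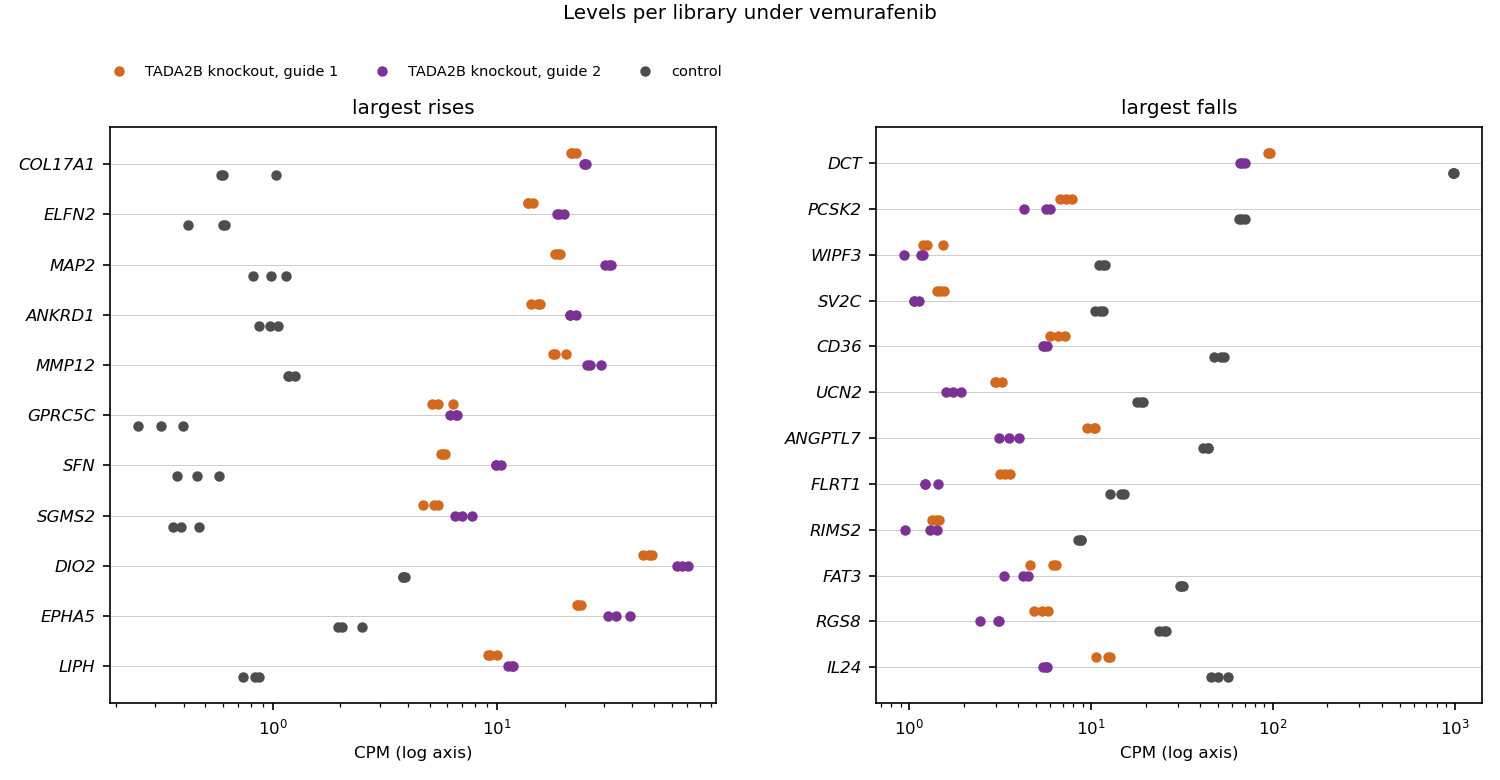
Level in CPM (log axis) of the most increased and most decreased protein-coding genes in each of the 9 vemurafenib libraries, knockout libraries of guide 1 and guide 2 and control libraries by colour. No knockout library overlaps a control library for any gene drawn, as the ranking required, and DCT lies between 65.8 and 96.9 CPM in knockout cells against 978 to 999 CPM in control cells.

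The gene lists described next were written from general knowledge, but with earlier results of these data known. Their counts are therefore not independent of these data. Each list is given by its counts and its median beside the whole table, where 27.3% of genes rose, 28.3% fell and the median was −0.015. For pigment cell genes the balance lay below that. Of 30 melanocyte differentiation genes 29 were tested, 9 rose and 17 fell, 5 and 11 of them at least 2-fold. The median log2 fold change was −0.70. With 0.5 CPM added to every level, the medians of single knockout libraries against the control mean were −0.35 to −0.18. SOX10, the regulator of the melanocyte and Schwann cell lineages, had 523, 541 and 530 CPM with guide 1 and 303, 298 and 267 CPM with guide 2, against 1114, 1121 and 1064 CPM in control libraries. It fell by 1.49 ± 0.030 on the log2 scale, and guide 2 gave the lower level. SOX10 overlaps POLR2F on the other strand, whose counts were 12.5% of its own. MITF, its target and the master regulator of pigment genes, had 96.9 to 97.9 CPM with guide 1 and 82.3 to 90.1 CPM with guide 2, against 145 to 152 CPM in control libraries, a log2 fold change of −0.70 ± 0.028.

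CITED1, a transcriptional cofactor of pigment cells, fell by 3.14 on the log2 scale, to 0.516 to 1.44 CPM in knockout libraries, against 7.18 to 9.03 CPM in control libraries, but it overlaps PIN4, which had more counts. TRPM1, a channel gene that MITF controls, had 0.0504 to 0.210 CPM in knockout libraries and 0.431 to 0.664 CPM in control libraries, a log2 fold change of −2.24 ± 0.37. TYR, the tyrosinase, was near the detection limit, with 19 reads over the 6 knockout libraries and 42 over the 3 control libraries, and it was called with guide 2 and in the mean, but not with guide 1 alone. KIT, the receptor for stem cell factor, moved the other way, at 0.672 to 1.27 CPM in knockout libraries against 0.0511 to 0.111 CPM in control libraries, a log2 fold change of 3.47 ± 0.43.

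Neural crest-like genes mostly fell. Of 25 genes 24 were tested, 4 rose and 19 fell, 13 of them at least 2-fold. The median was −1.30, with −0.82 for guide 1 and −1.61 for guide 2. With 0.5 CPM added, the knockout library medians were −1.18 to −0.50. NGFR, the nerve growth factor receptor that marks drug-tolerant melanoma cells, had 33.2, 34.1 and 33.5 CPM with guide 1 and 19.1, 19.0 and 17.2 CPM with guide 2, against 118, 115 and 114 CPM in control libraries. The log2 fold change was −2.22 ± 0.038, with the lower level again in guide 2 cells. RXRG, a retinoid receptor of the neural crest-like state, and GDNF, a growth factor for peripheral nerves, fell by 2.33 and 2.21. RXRG had 2.28 to 6.11 CPM in knockout libraries and 19.4 to 20.7 CPM in control libraries, and GDNF had 11.5 to 25.7 CPM in knockout libraries and 74.6 to 81.3 CPM in control libraries. SOX9, a neural crest regulator that is often high where SOX10 is low, rose by 2.65 ± 0.19, at 1.86 to 3.84 CPM in knockout libraries and 0.319 to 0.529 CPM in control libraries.

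Undifferentiated-state genes were split. Of 29 genes 28 were tested, 14 rose and 11 fell, and the median was 0.20. EGFR, a receptor linked to resistance, had 18.8, 19.5 and 18.8 CPM with guide 1 and 26.2, 23.8 and 23.1 CPM with guide 2, against 4.39, 4.82 and 5.52 CPM in control libraries, a log2 fold change of 2.13 ± 0.057. AXL, the other receptor commonly used for this state, had 141 to 164 CPM in knockout libraries and 170 to 179 CPM in control libraries, a small fall of 0.19 ± 0.026. F2RL1, a protease-activated receptor, rose by 2.60 ± 0.090. ROR2, a Wnt receptor, rose by 1.97 ± 0.33, at under 1 CPM in every library. FOSL2 of the same list fell and is described with the AP-1 genes.

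Cadherins and their regulators changed in both directions, with 6 of 16 higher, 6 lower and a median of 0.13, which was −0.06 with guide 1 alone. ZEB2, a repressor of E-cadherin that is normal in melanocytes, had 139, 139 and 140 CPM with guide 1 and 64.0, 63.9 and 70.9 CPM with guide 2, against 380, 359 and 354 CPM in control libraries. Its log2 fold change was −1.92 ± 0.029. SNAI2, a related neural crest repressor, fell by 1.49 ± 0.056, while CDH3 (P-cadherin) and CDH11 (a mesenchymal cadherin) rose by 2.25 ± 0.11 and 1.95 ± 0.12. CDH1, the E-cadherin gene, stayed at 0.189 CPM or less in all 9 libraries, and its call was lost with guide 1 alone and without replicate 1 or 3 of the control, replicate 2 of guide 1 or replicate 1 of guide 2.

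**Figure D2:**
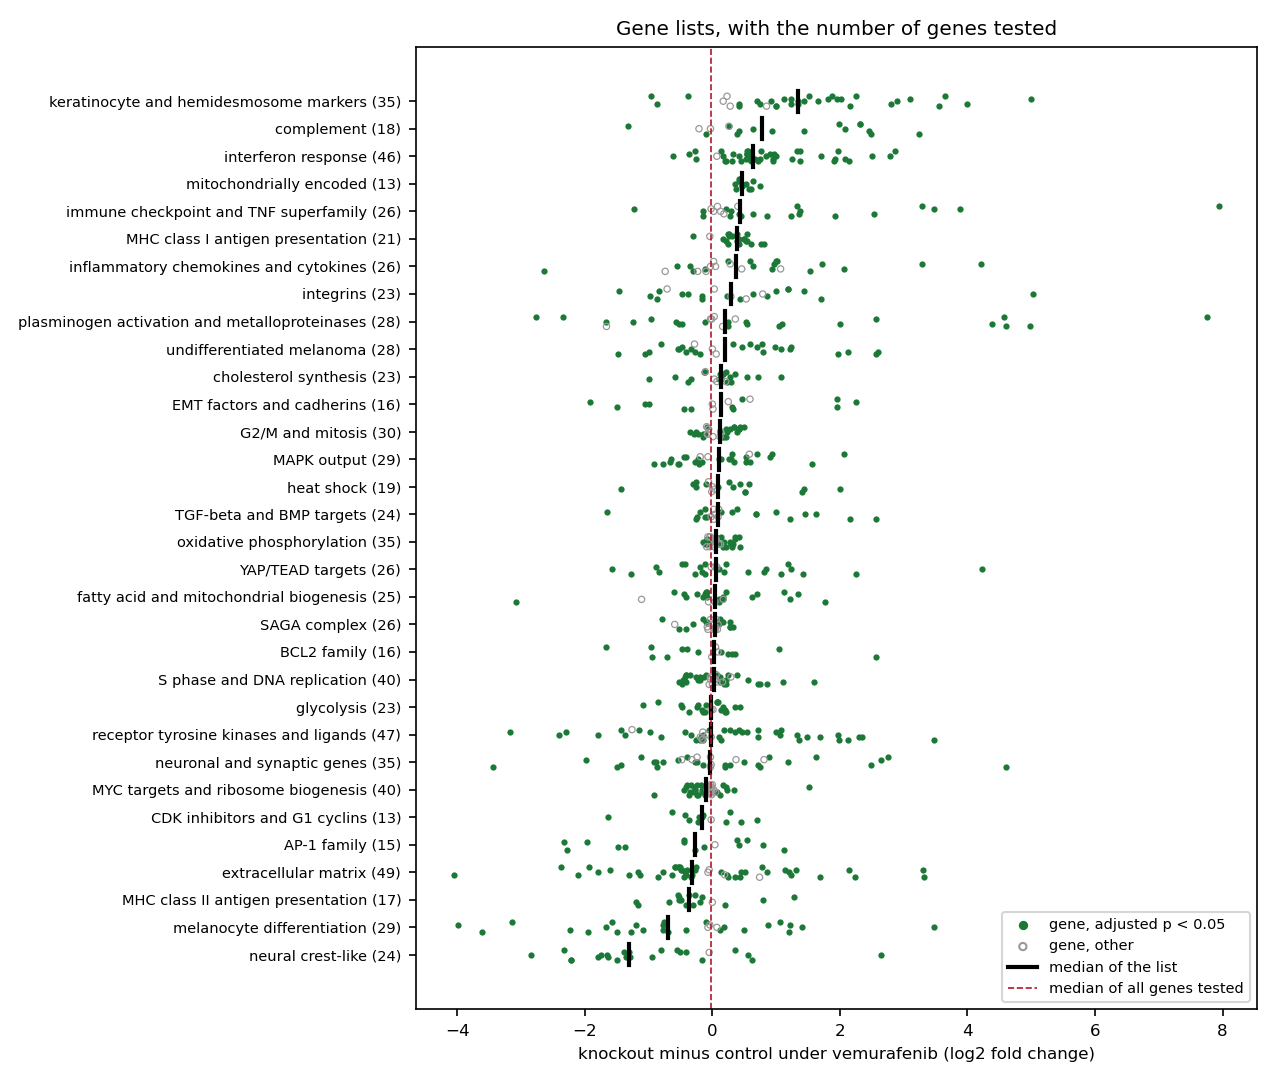
Log2 fold change (knockout over control, both guides averaged, horizontal axis) of each gene of the lists under vemurafenib, with called genes as filled points, other genes as open points, a bar at each list's median and a dashed line at the median of all genes tested. Keratinocyte and hemidesmosome genes have the highest of the medians drawn, 1.34, and neural crest-like genes the lowest, −1.30.

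AP-1 transcription factors bind the TGANTCA site shown above and are dimers of JUN, FOS and ATF family proteins. Of 16 AP-1 family genes 15 were tested, 5 rose and 9 fell, with a median of −0.27. JUN had 128, 132 and 130 CPM with guide 1 and 59.6, 59.4 and 57.2 CPM with guide 2, against 437, 425 and 407 CPM in control libraries. It fell by 2.28 ± 0.029 on the log2 scale (adjusted p = 1.21e-46, edgeR). The groups did not overlap, and guide 2 cells had less than guide 1 cells. FOS fell by 2.32 ± 0.054, with 3.50 to 6.67 CPM in knockout libraries and 22.8 to 25.0 CPM in control libraries. ATF3, a stress-induced member, fell by 1.97 ± 0.040, with 11.5 to 21.9 CPM in knockout libraries and 58.2 to 61.5 CPM in control libraries. FOSL2 fell by 1.48 ± 0.027, with 74.5 to 102 CPM in knockout libraries and 236 to 246 CPM in control libraries. The rises in this list included JUND (0.42), MAFK (0.55), BATF2 (0.39) and BATF3 (1.13) on the log2 scale. The transcripts of JUN and FOS were lower, and those of MMP10 and LAMB3, whose promoters hold the AP-1 match, were higher. PLAU, whose promoter was searched and holds no such match, was higher too. Any link between these changes was not tested.

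Genes that report MAPK signalling had no common direction. Of 29 genes 14 rose and 12 fell, and the median was 0.11 over both guides but −0.08 with guide 2 alone. DUSP6, a phosphatase that ERK induces and that is used as a readout of pathway activity, had 11.1, 12.7 and 12.5 CPM with guide 1 and 6.01, 6.14 and 7.10 CPM with guide 2, against 13.5, 13.3 and 14.6 CPM in control libraries. The log2 fold change was −0.65 ± 0.047 in the mean of guides, −0.19 with guide 1 and −1.11 with guide 2. SPRY4, another inhibitor of the pathway induced by it, fell by 0.16 ± 0.057 (adjusted p = 0.0129, edgeR), with 3.52 to 4.12 CPM in knockout libraries and 4.17 to 4.40 CPM in control libraries. That call was lost with guide 1 alone, without replicate 2 of the control, with library totals, with voom and with the 9 vemurafenib libraries fitted alone.

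SPRY1, which is related to SPRY4, rose by 2.07 ± 0.15, at 1.44 to 2.85 CPM in knockout libraries and 0.445 to 0.528 CPM in control libraries. HMGA2, a chromatin protein of embryonic cells, rose by 1.56 ± 0.043, and LIF, a cytokine, by 0.94 ± 0.064. MYC, the growth regulator, fell by 0.92 ± 0.10, at 1.25 to 2.38 CPM in knockout libraries and 2.98 to 3.83 CPM in control libraries. For scale, DUSP6 averaged 175 CPM in knockout cells and 147 CPM in control cells in DMSO, so its vemurafenib levels in both genotypes were a small part of those without drug.

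The SAGA complex itself changed little. Of its 26 genes 8 rose and 7 fell, and the median was 0.04. The largest change was that of KAT2B, an acetyltransferase of the same module, which had 304, 302 and 305 CPM with guide 1 and 171, 171 and 180 CPM with guide 2, against 412, 385 and 397 CPM in control libraries. Its log2 fold change was −0.79 ± 0.026, and the guides were well apart. USP22, the deubiquitinase of the complex, fell by 0.42 ± 0.022, and KAT2A, the other acetyltransferase, rose by 0.27.

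Keratinocyte and hemidesmosome genes rose. Of 40 listed 35 were tested, 28 rose, 21 of them at least 2-fold, and 3 fell, with a median of 1.34. With 0.5 CPM added, the knockout library medians were 0.72 to 1.0. KRT15, a basal keratin, had 12.3, 12.0 and 12.3 CPM with guide 1 and 14.4, 14.1 and 12.5 CPM with guide 2, against 1.55, 1.44 and 1.51 CPM in control libraries, a log2 fold change of 3.10 ± 0.078. PKP2, a desmosomal plaque protein, rose by 3.56 ± 0.16, at 5.08 to 9.75 CPM in knockout libraries and 0.347 to 0.710 CPM in control libraries. KRT19, a keratin of simple epithelia, rose by 3.65 ± 0.34, at about 1 CPM in knockout cells. LAMB3, the laminin chain whose promoter is shown above, had 117 to 168 CPM in knockout libraries and 34.7 to 35.1 CPM in control libraries, and rose by 2.02. The simple-epithelial keratin KRT8 had 70.2 to 109 CPM in knockout libraries and 27.5 to 28.6 CPM in control libraries. The falls in the list were ITGA6 (−0.87), DST (−0.38) and ESRP1 (−0.96).

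The same list serves as a check for other cells in the culture. Summed over its 40 genes, knockout libraries had 1294 to 1423 CPM and control libraries 902 to 913 CPM. IVL and SPRR1B, which define differentiated keratinocytes, had 0 counts in all 9 libraries, and 12 of the 40 genes stayed under 1 CPM in every library. Fibroblast markers summed to 389 to 418 CPM in knockout libraries and 274 to 288 CPM in control libraries. Leukocyte markers summed to 21.1 to 25.0 CPM in knockout libraries and 13.3 to 14.0 CPM in control libraries, with 10 of 15 under 1 CPM throughout. Endothelial markers summed to 80.4 to 101 CPM in knockout libraries and 107 to 112 CPM in control libraries. The part of other cells in these sums was not tested.

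Secreted proteases of the metalloproteinase and plasminogen systems contained some of the steepest rises. Of 30 genes 28 were tested, 13 rose and 9 fell, with a median of 0.20, which was 0.09 with guide 2 alone. Without replicate 2 of the control, replicate 1 of guide 1 or replicate 1 of guide 2 it was 0.085, 0.129 and 0.094. MMP1, the interstitial collagenase, had 3.89, 4.02 and 3.95 CPM with guide 1 and 5.49, 5.80 and 5.81 CPM with guide 2, against 0.229, 0.236 and 0.128 CPM in control libraries. Its log2 fold change was 4.58 ± 0.14. MMP3 (stromelysin 1) and MMP13 (collagenase 3) rose by 4.39 ± 0.19 and 4.98 ± 0.20, and PLAU, the urokinase, by 4.60 ± 0.24. In control libraries MMP3 had 0.144 to 0.292 CPM and MMP13 0.0511 to 0.108 CPM. Knockout libraries had 3.16 to 5.44 CPM of MMP3 and 2.09 to 2.9 CPM of MMP13. PLAU had 1.41 to 2.23 CPM in knockout libraries and 0.0128 to 0.132 CPM in control libraries. MMP10 (stromelysin 2) had no read in the 3 control libraries and 161 in the 6 knockout libraries. It was 26.9-fold higher against a floor of 3 reads over the control libraries, and the lower 95% limit of its ratio was 21.6. It overlaps the pseudogene WTAPP1 on the other strand. The lower members included TIMP4 (−2.77) and TIMP3 (−0.97), inhibitors of metalloproteinases, and MMP17 (−2.34), while the inhibitor TIMP1 rose by 1.09.

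Extracellular matrix genes leaned to lower levels, with 18 of 49 higher, 27 lower and a median of −0.32, which was −0.10 with guide 1 and −0.44 with guide 2. COL11A1, a fibrillar collagen, fell by 4.05 ± 0.13, at 0.258 to 0.745 CPM in knockout libraries and 6.31 to 8.38 CPM in control libraries. COL8A1, a short-chain collagen, fell by 2.37 ± 0.041, at 15.2 to 27.6 CPM in knockout libraries and 101 to 111 CPM in control libraries. Against these, COL13A1, a transmembrane collagen, rose by 3.30 ± 0.21, LOXL1, a collagen cross-linking enzyme, by 3.32 ± 0.42 and POSTN (periostin) by 2.23 ± 0.48, all from low levels. LOXL1 overlaps an antisense RNA.

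Integrins, the receptors for this matrix, were 10 of 23 higher and 8 lower. Their median was 0.29, which was 0.179 without replicate 1 of the control. With 0.5 CPM added, the knockout library medians were 0.02 to 0.14. ITGA8, a partner of integrin beta 1, had 2.59, 2.23 and 1.86 CPM with guide 1 and 4.32, 3.78 and 3.76 CPM with guide 2, against 0.0962, 0.139 and 0.0383 CPM in control libraries, a log2 fold change of 5.02 ± 0.24. ITGA11, a collagen receptor, rose by 1.70 ± 0.11 and ITGAX, better known from leukocytes, by 1.44 ± 0.057. ITGA9 fell by 1.47 ± 0.070, at 2.08 to 3.66 CPM in knockout libraries and 7.29 to 8.39 CPM in control libraries.

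Targets of YAP and TEAD, the effectors of the Hippo pathway, did not move as a group. Of 26 genes 12 rose and 11 fell, with a median of 0.05 (0.02 with guide 1). Beside ANKRD1, IGFBP3, which binds insulin-like growth factors, rose by 2.25 ± 0.090 and the matricellular gene CCN1 by 1.42 ± 0.051. CCN1 had 20.1 to 27.6 CPM in knockout libraries and 8.82 to 9.39 CPM in control libraries. GADD45B, a stress gene, fell by 1.58 ± 0.049. CCN3, another matricellular gene, had 290, 289 and 299 CPM with guide 1 and 103, 104 and 104 CPM with guide 2, against 435, 406 and 419 CPM in control libraries, a fall of 1.27 ± 0.025 in the mean of guides. Its guides gave −0.52 and −2.02.

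TGF-beta and BMP targets were 11 of 24 tested higher and 7 lower, with a median of 0.09, which was 0.21 with guide 1 alone, and 0.035 and 0.154 without replicate 2 or 3 of the control. INHBA, the activin A chain, rose by 2.16 ± 0.044, at 75.3 to 103 CPM in knockout libraries and 17.8 to 20.3 CPM in control libraries. PMEPA1, an inhibitor of the same pathway, fell by 1.65 ± 0.027, at 46.4 to 94.5 CPM in knockout libraries and 205 to 213 CPM in control libraries. Receptor tyrosine kinases and their ligands were 23 of 47 tested higher and 17 lower, with a median of −0.02 that was positive under most other settings. VEGFC, the lymphatic growth factor, rose by 2.35 ± 0.052, at 36.5 to 58.2 CPM in knockout libraries and 8.54 to 9.59 CPM in control libraries. ERBB4, a neuregulin receptor, and FGFR2, a fibroblast growth factor receptor, fell by 3.17 ± 0.23 and 2.41 ± 0.15, both to under 1 CPM in knockout libraries.

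Interferon response genes were mostly higher in the knockout cells. All 46 were tested, 41 rose, 14 of them at least 2-fold, and 4 fell, with a median of 0.64. RSAD2, the antiviral enzyme viperin, had 6.25, 5.23 and 9.69 CPM with guide 1 and 7.44, 5.54 and 6.07 CPM with guide 2, against 1.03, 1.28 and 1.23 CPM in control libraries. The log2 fold change was 2.51 ± 0.25, the guides overlapped, and the knockout and control libraries did not. BST2 (tetherin, which holds budding viruses at the membrane) had 16.7, 16.2 and 19.1 CPM with guide 1 and 22.3, 19.3 and 22.7 CPM with guide 2, against 4.44, 4.11 and 4.47 CPM in control libraries, a log2 fold change of 2.15 ± 0.079. IFI27 and XAF1, interferon-induced genes linked to cell death, rose by 2.79 ± 0.22 and 2.87 ± 0.25, and OASL, a relative of the 2′-5′ oligoadenylate synthetases, by 2.08 ± 0.12.

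The members that fell were MX2 (−0.62), IFITM3 (−0.37), STAT2 (−0.27) and IFI16 (−0.26), and IFITM2 was not called. STAT2 is a subunit of the factor that binds the response element shown above, and its partner IRF9 rose by 0.41. RSAD2 shares its locus with CMPK2 on the other strand, which rose by 0.72. In DMSO, 42 of the 46 genes were called higher, against 29.3% of all genes, and the median was 1.02. The difference between the effects was called with the lower effect under vemurafenib for 29 genes and with the higher effect for 4, against 22.4% and 20.0% of all genes.

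MHC class I and class II genes went apart. For class I antigen presentation, 19 of 21 genes rose and 1 fell, with a median of 0.38. NLRC5, the transactivator of class I genes, had 37.1, 37.4 and 37.4 CPM with guide 1 and 42.0, 39.6 and 37.2 CPM with guide 2, against 22.8, 21.2 and 21.8 CPM in control libraries, a log2 fold change of 0.81 ± 0.042. TAPBPL, a peptide editor, and PSME2, a proteasome activator, rose by 0.77 ± 0.065 and 0.60 ± 0.036, but both overlap other genes on the opposite strand. For class II, 13 of 17 genes fell and 3 rose, with a median of −0.37, which was −0.15 with guide 1 and −0.57 with guide 2. CIITA, the transactivator of class II genes, had 110, 116 and 114 CPM with guide 1 and 61.4, 61.0 and 59.5 CPM with guide 2, against 185, 194 and 179 CPM in control libraries, a log2 fold change of −1.17 ± 0.030. HLA-DOA, which tunes peptide loading, fell by 1.19 ± 0.045, while CTSS, a protease that processes the invariant chain, rose by 1.28 ± 0.065. HLA genes are alike in sequence, and how the counting shared such reads is not given.

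Complement genes rose in most cases. Of 19 genes 18 were tested, 13 rose and 2 fell, with a median of 0.78. C3, the central complement protein, had 414, 433 and 445 CPM with guide 1 and 405, 401 and 390 CPM with guide 2, against 84.0, 83.4 and 80.9 CPM in control libraries. Its log2 fold change was 2.32 ± 0.031, and guide 1 was slightly above guide 2. C4A and C4B rose by 2.48 ± 0.077 and 2.45 ± 0.090, but they are near-identical copies and their counts cannot be assigned firmly to either. CFB, the factor B protease, rose by 2.32 ± 0.19 and shares its locus with C2, which was not called.

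Immune checkpoint and TNF superfamily genes were 17 of 26 higher and 3 lower, with a median of 0.43. TNFRSF9 (4-1BB), a costimulatory receptor, had 11.7, 11.3 and 10.3 CPM with guide 1 and 17.8, 18.1 and 17.2 CPM with guide 2, against 1.34, 1.69 and 1.28 CPM in control libraries, a log2 fold change of 3.29 ± 0.081. TNFSF10, the death ligand TRAIL, rose by 3.48 ± 0.20, at 2.72 to 4.44 CPM in knockout libraries and 0.194 to 0.421 CPM in control libraries. TNFSF15, a ligand of the same family, had 184 reads over the knockout libraries and none in the control libraries. It was 30.7-fold higher against the floor of 3 reads, with a lower 95% limit of 24.7 for the ratio. ICOSLG, the ligand of ICOS, had 77 reads in knockout libraries and 2 in control libraries, a ratio of 19.3 with a 95% interval of 5.16 to 162 that covers counting error only. The checkpoint ligand genes CD274 (PD-L1) and PDCD1LG2 (PD-L2) rose by 1.93 and 2.54, and VTCN1 fell by 1.23.

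Inflammatory chemokines and cytokines were 12 of 26 tested higher and 5 lower. Their median was 0.37, which was 0.24 without replicate 3 of guide 2. With 0.5 CPM added, the knockout library medians were 0.05 to 0.15. IL1B, the inflammasome cytokine, rose by 3.28 ± 0.25, at 0.756 to 1.78 CPM in knockout libraries and 0.0767 to 0.222 CPM in control libraries. CCL26, an eotaxin, rose by 2.06 ± 0.25, at 1.0 to 1.5 CPM in knockout libraries and 0.141 to 0.421 CPM in control libraries. CSF2, the growth factor GM-CSF, rested on 13 reads in knockout libraries and 0 in control libraries. It was 2.17-fold higher against the floor, with a lower 95% limit of 1.53 for the ratio. Its call was lost with voom and without replicate 2 of guide 2.

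**Figure D3:**
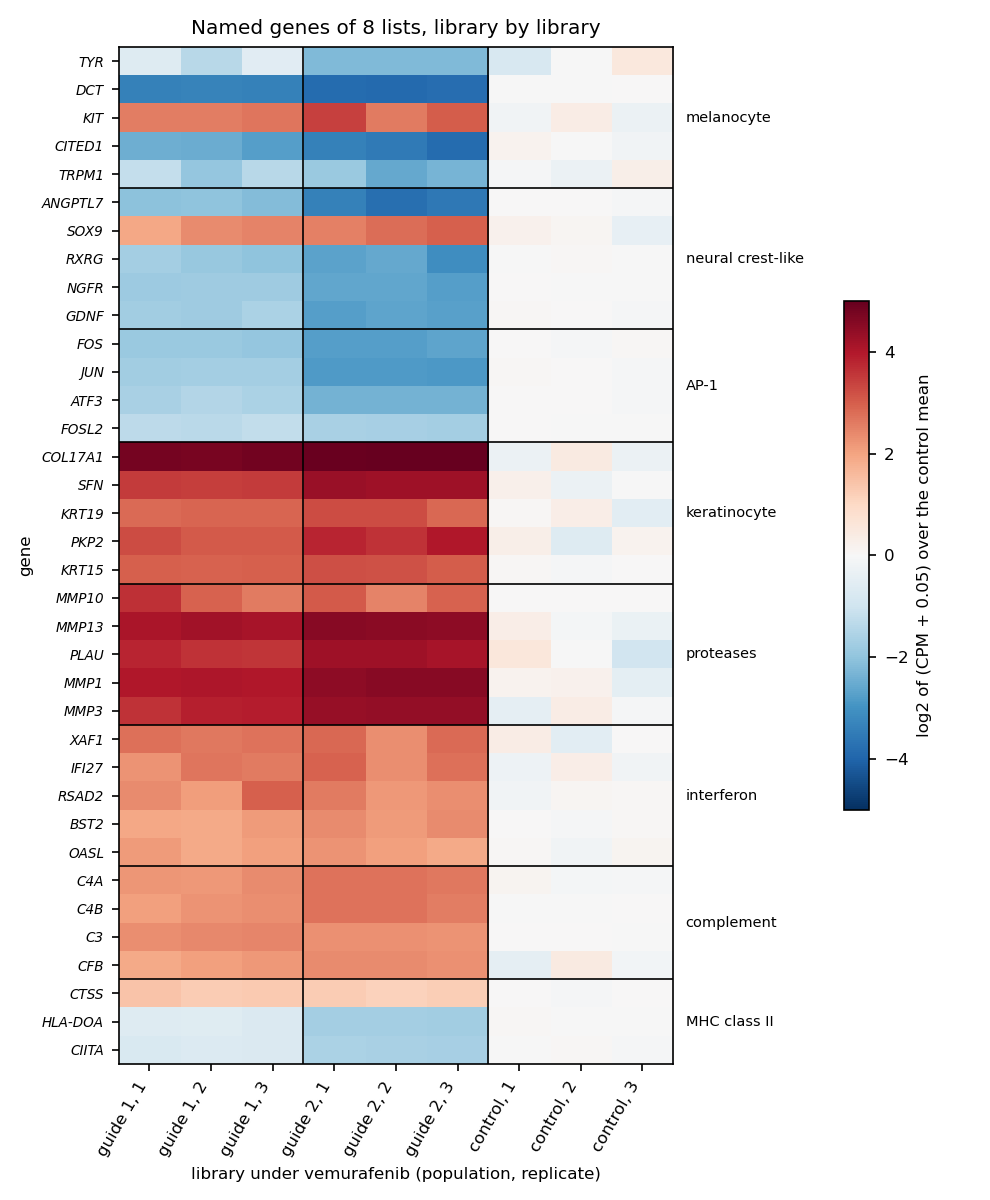
Level of named list members in each of the 9 vemurafenib libraries, as the log2 ratio of CPM plus 0.05 to the control mean, with knockout libraries left of control libraries. Neural crest-like and AP-1 members such as NGFR, GDNF and JUN are lower in knockout libraries, further with guide 2, and interferon, complement and protease members are higher with both guides.

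Cell cycle genes had small and mixed differences under vemurafenib. For G2/M and mitosis, 14 of 30 rose and 8 fell, with a median of 0.12 over both guides, 0.25 with guide 2 and −0.02 with guide 1. NDC80, a kinetochore subunit, and BIRC5 (survivin) rose by 0.49 ± 0.059 and 0.44 ± 0.051. For S phase and DNA replication, 14 of 40 rose and 15 fell, with a median of 0.02 that was negative with guide 1 alone and without replicate 2 of the control. E2F2 and E2F1, transcription factors that drive entry into S phase, rose by 1.59 ± 0.15 and 0.85 ± 0.086, and MCM10, a replication initiator, by 1.11 ± 0.12.

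In DMSO 30 of 30 and 40 of 40 genes of these lists were called lower, against 28.6% of all genes, with medians of −0.49 and −0.61. The difference between vemurafenib and DMSO was called with the higher effect under vemurafenib for 29 and 37 of these genes, against 20.0% of all genes. Levels under the drug were low in both genotypes. MCM10, for example, had 1.96 to 3.00 CPM in knockout libraries and 1.05 to 1.22 CPM in control libraries under vemurafenib, and means of 33.4 CPM in knockout cells and 64.6 CPM in control cells in DMSO.

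Among cell cycle inhibitors and G1 cyclins, 4 of 13 tested rose and 8 fell, with a median of −0.16. CCND1 (cyclin D1) had 54.5, 53.6 and 54.1 CPM with guide 1 and 49.6, 47.5 and 51.0 CPM with guide 2, against 33.3, 30.6 and 31.1 CPM in control libraries, a log2 fold change of 0.70 ± 0.031. CCND1 overlaps LTO1 on the other strand. CDKN1C (p57) fell by 1.64 ± 0.054, at 6.67 to 17.0 CPM in knockout libraries and 34.1 to 36.1 CPM in control libraries. In the BCL2 family 6 of 16 tested rose and 7 fell, with a median of 0.02 that was −0.03 with guide 1. PMAIP1 (NOXA), which promotes cell death, rose by 2.57 ± 0.096, at 7.11 to 13.3 CPM in knockout libraries and 1.52 to 1.74 CPM in control libraries. BCL2A1, an inhibitor of cell death that MITF controls in melanocytes, fell by 1.67 ± 0.093, at 1.34 to 3.76 CPM in knockout libraries and 6.74 to 7.87 CPM in control libraries.

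Transcripts encoded by the mitochondrial genome rose. All 13 were called, and their median was 0.46. MT-CO2, a subunit of cytochrome oxidase, had 2624, 2454 and 2650 CPM with guide 1 and 2384, 2500 and 2527 CPM with guide 2, against 1640, 1598 and 1622 CPM in control libraries, a log2 fold change of 0.64 ± 0.041. MT-ND6, the gene on the light strand, rose by 0.74 ± 0.085. Mitochondrial transcripts took 3.44% ± 0.166 of the counts in knockout libraries (SD, n = 6) and 2.27% ± 0.0661 in control libraries (SD, n = 3), with no overlap. The difference of 1.17 percentage points had an exact two-sided permutation p of 0.0238 over 84 splits, the smallest this design allows. The mitochondrial share can also follow RNA quality or the number of cells per library, whose part was not tested. Nuclear genes of oxidative phosphorylation had a median of 0.06 (0.03 with guide 1), with 15 of 35 higher and 7 lower. Those that rose included NDUFA1 (0.43 ± 0.046) and ATP5MC1 (0.42 ± 0.044).

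Other metabolic lists had medians between −0.02 and 0.14, with single members that moved. For glycolysis 10 of 23 rose and 11 fell, with a median of −0.02, which was 0.09 with library totals. HK2, a hexokinase, fell by 1.08 ± 0.028, at 34.4 to 45.5 CPM in knockout libraries and 80.9 to 83.5 CPM in control libraries, and PFKFB4 by 0.85 ± 0.031. For cholesterol synthesis 13 of 23 tested rose and 6 fell, with a median of 0.14, which was 0.25 with library totals. STARD4, a sterol carrier, rose by 1.07 ± 0.091. For fatty acid use and mitochondrial biogenesis 11 of 25 rose and 10 fell, with a median of 0.04 that was negative with either guide alone and without replicate 1 of guide 1 or replicate 3 of guide 2. PPARGC1A, a coactivator of mitochondrial biogenesis, rose by 1.21 ± 0.073, at 12.3 to 14.6 CPM in knockout libraries and 5.69 to 6.18 CPM in control libraries, UCP2 by 1.34 ± 0.056 and ANGPTL4 by 1.76 ± 0.14.

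For MYC targets and ribosome biogenesis 7 of 40 rose and 21 fell, with a median of −0.10 that was 0.012 with library totals. ODC1, the first enzyme of polyamine synthesis, stood apart from the list with a rise of 1.51 ± 0.041, at 36.6 to 48.6 CPM in knockout libraries and 14.8 to 15.5 CPM in control libraries. Heat shock genes were 10 of 19 higher and 5 lower, with a median of 0.09. HSPB8, a small chaperone, rose by 2.00 ± 0.049 and HSPA1B by 1.43 ± 0.051, but HSPA1B has a near-identical copy, HSPA1A. CRYAB, the lens and muscle chaperone, fell by 1.44 ± 0.13. Neuronal and synaptic genes were 13 of 35 tested higher and 14 lower, with a median of −0.03. PCSK1, a neuropeptide convertase like PCSK2, had 126, 134 and 134 CPM with guide 1 and 126, 132 and 139 CPM with guide 2, against 21.5, 18.4 and 19.1 CPM in control libraries. Its rise of 2.75 ± 0.039 had the opposite direction to the fall of PCSK2 and was alike with both guides.

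The guides gave the same direction for most strong changes and differed in size. The difference between the guides was called for 4026 genes (16.0%), 1795 higher and 2231 lower with guide 2. Of the 3344 genes called at 2-fold or more, 1066 (31.9%) differed between the guides, and guide 2 had the larger effect in 1042 of them (97.7%). All 24 genes of the ranking above had the larger effect with guide 2, and the difference was called for 20. Only 39 genes of the whole table were called with each guide in opposite directions. Under vemurafenib the TADA2B transcript was lower with guide 2, at −0.62 against −0.43 on the log2 scale with guide 1 (adjusted p of the difference = 0.000565, edgeR). In DMSO the knockout effect on this transcript was −0.08 over both guides and was not called. Any link between the transcript and the size of the guide effects was not tested. Leaving out TYR and ICOSLG, which rest on few reads, the widest gaps among the named genes were those of ANGPTL7, CCN3, FLRT1, BCL2A1 and JUN, all lower with guide 2. ICOSLG was higher with guide 2, by 1.31 ± 0.47 on the log2 scale (adjusted p = 0.0467, edgeR). For interferon response genes the difference was called for 10 of 46, against 16.0% of all genes. Other lists ranged widely. The difference was called for 26 of 30 G2/M and mitosis genes, 20 of 24 neural crest-like genes and 14 of 17 MHC class II genes. It was called for 0 of 35 nuclear oxidative phosphorylation genes. Both guide effects share the same 3 control libraries.

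**Figure D4:**
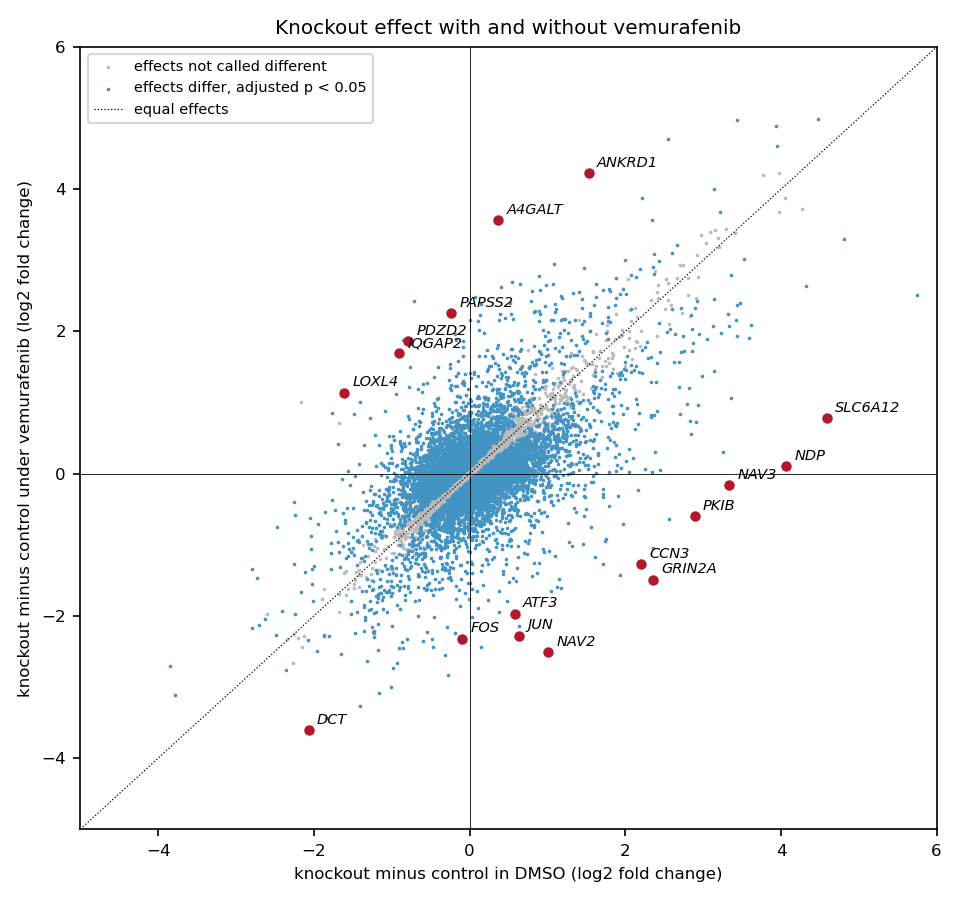
Knockout effect under vemurafenib (vertical axis, log2 fold change) against that in DMSO (horizontal axis, log2 fold change) for the 14117 genes that average at least 1 log2-CPM under vemurafenib, coloured where the effects differed by edgeR's interaction test, with some named genes in red. Genes far from the diagonal include JUN, with −2.28 under vemurafenib and 0.64 in DMSO, and A4GALT, with 3.57 under vemurafenib and 0.37 in DMSO.

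The knockout effect under vemurafenib was next set against the knockout effect in DMSO, which rests on other libraries. Of all genes tested, 29.3% were called higher and 28.6% lower in DMSO, against 27.3% and 28.3% under vemurafenib. Of the genes higher under vemurafenib, 4184 were also higher in DMSO, 60.9% of the vemurafenib calls and 56.7% of the DMSO calls. Of those lower under vemurafenib, 4070 were also lower in DMSO, 57.1% and 56.4%. Another 963 of the higher genes (14.0%) and 1060 of the lower genes (14.9%) were called in the opposite direction in DMSO. The difference between the effects was called more positive under vemurafenib for 5044 genes (20.0%) and more negative for 5655 (22.4%). Among genes at least 2-fold higher under vemurafenib 69.1% were also called higher in DMSO, and among those at least 2-fold lower 48.2% were called lower in DMSO.

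The largest differences were of genes whose drug response depended on the genotype. LOXL4, a lysyl oxidase, had 132 to 149 CPM in knockout libraries and 62.8 to 64.1 CPM in control libraries under vemurafenib, but means of 238 CPM in knockout cells and 688 CPM in control cells in DMSO. Its knockout effects were 1.14 under vemurafenib and −1.61 in DMSO, a difference of 2.75 ± 0.040 (adjusted p = 1.82e-43, edgeR). A4GALT, a glycolipid galactosyltransferase, had 3.98 to 6.75 CPM in knockout libraries and 0.301 to 0.542 CPM in control libraries under vemurafenib, against means of 11.5 CPM in knockout cells and 8.94 CPM in control cells in DMSO. PAPSS2, which makes the sulfate donor, PDZD2, a PDZ-domain protein, and IQGAP2, a scaffold protein, had effects of 2.26, 1.86 and 1.69 under vemurafenib, and of −0.24, −0.79 and −0.91 in DMSO. ANKRD1 had 4.23 under vemurafenib and 1.53 in DMSO. PDZD2 and IQGAP2 overlap other genes.

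Genes with the more negative effect under vemurafenib included many that the drug raised in control cells. NAV2, a neuron navigator, had 10.5 to 23.2 CPM in knockout libraries and 85.4 to 93.0 CPM in control libraries under vemurafenib, and means of 12.5 CPM in knockout cells and 6.15 CPM in control cells in DMSO. Its effects were −2.51 under vemurafenib and 1.01 in DMSO, a difference of −3.53 ± 0.073. JUN had an effect of −2.28 under vemurafenib, against 0.64 in DMSO, where its means were 14.9 CPM in knockout cells and 9.50 CPM in control cells. NDP, the Norrie disease ligand, and NAV3 had effects of 0.11 and −0.16 under vemurafenib, neither called, and of 4.07 and 3.33 in DMSO, where control cells had only 0.0725 and 0.452 CPM. GRIN2A, a glutamate receptor subunit, had an effect of −1.49 under vemurafenib and 2.36 in DMSO. SLC6A12, a betaine transporter, had 0.78 under vemurafenib and 4.59 in DMSO, and PKIB, an inhibitor of protein kinase A, had −0.60 under vemurafenib and 2.89 in DMSO.

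**Figure D5:**
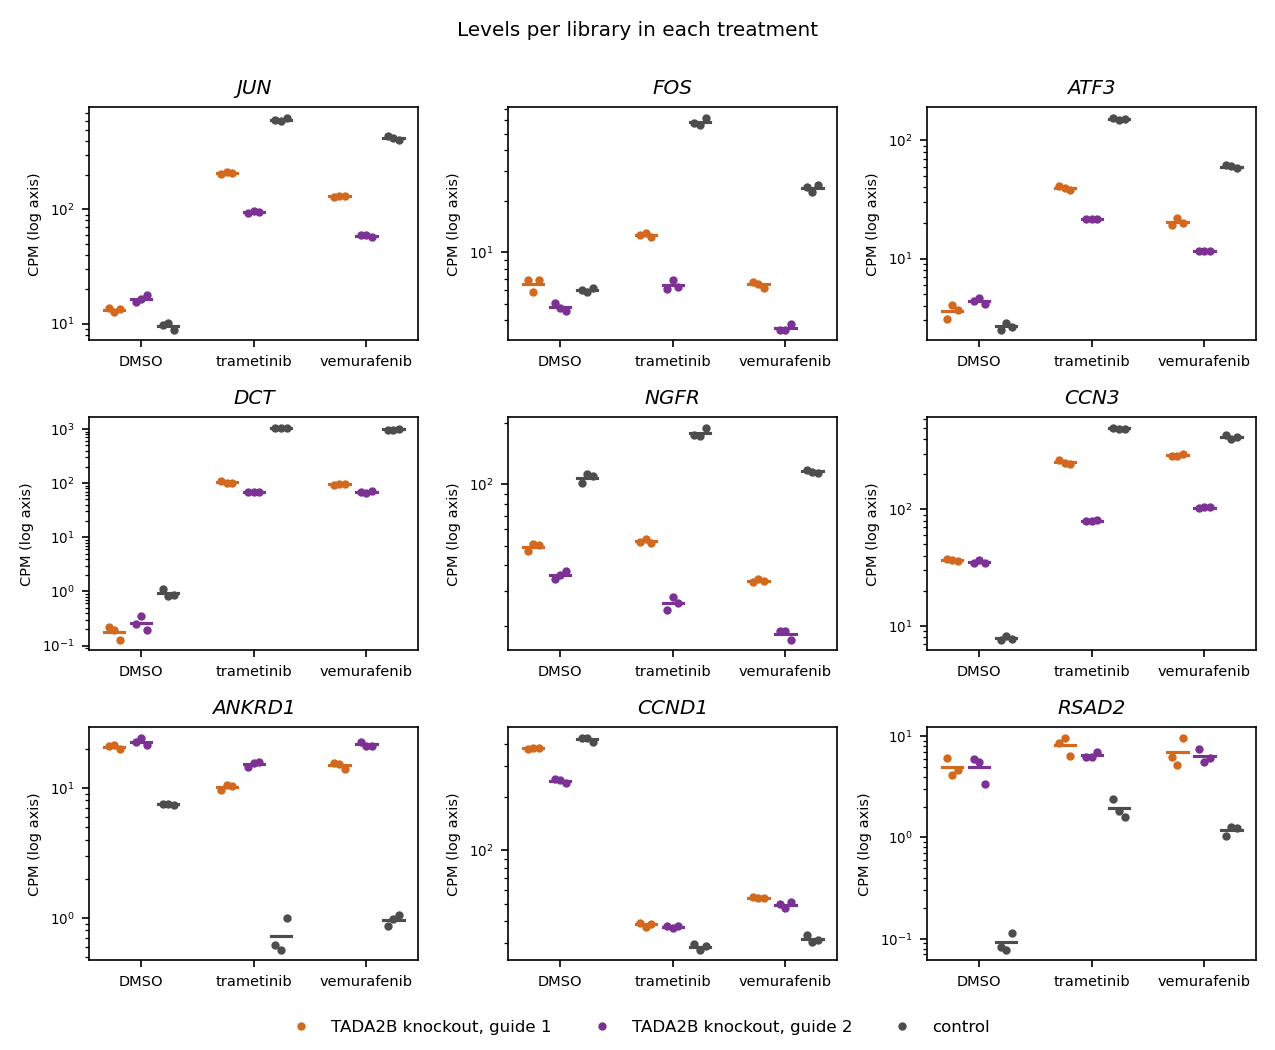
Level in CPM (log axis) of selected genes in all 27 libraries, by treatment (DMSO, trametinib, vemurafenib) with knockout left of control and a bar at each group's mean. JUN, DCT and CCN3 are low in DMSO and high in drug-treated control cells, and lie lower in drug-treated knockout cells.

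Across the 3 treatments, control cells had 8.81 to 10.1 CPM of JUN in DMSO, 595 to 637 CPM under trametinib and 407 to 437 CPM under vemurafenib. Knockout cells had 12.6 to 17.7 CPM in DMSO, 92.2 to 211 CPM under trametinib and 57.2 to 132 CPM under vemurafenib. Knockout cells were thus above control cells without drug and below them with either inhibitor. DCT had 0.128 to 0.354 CPM in knockout cells and 0.830 to 1.12 CPM in control cells in DMSO, and 67.9 to 108 CPM in knockout cells and 1036 to 1063 CPM in control cells under trametinib, close to the vemurafenib values above.

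Trametinib blocks MEK, the kinase that BRAF activates, and the knockout effects called under either inhibitor largely overlapped. Of all genes tested, 27.1% were called higher and 28.8% lower under trametinib, against 27.3% and 28.3% under vemurafenib. Of the genes higher under vemurafenib, 5678 were also higher under trametinib, 82.6% of the vemurafenib calls and 83.3% of the trametinib calls, and 5926 were lower under both, 83.1% and 81.7%. Opposite calls numbered 47 and 46. The difference between the effects was called for 1486 genes (5.90%), at least 2-fold more positive under vemurafenib for 44 and at least 2-fold more negative for 53.

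The genes with the more positive effect under vemurafenib were led by CDH11, with effects of 1.95 under vemurafenib and 0.16 under trametinib, a difference of 1.79 ± 0.18 (adjusted p = 2.49e-10, edgeR). TM4SF18, a small membrane protein, had 2.01 under vemurafenib and 0.70 under trametinib, and RASEF, a RAB protein, had 1.42 under vemurafenib and 0.19 under trametinib. SHISA2, a modulator of FGF and Wnt receptors, had 1.41 under vemurafenib and 0.36 under trametinib. The sphingosine phosphate receptor S1PR1 had 2.16 under vemurafenib and 1.16 under trametinib. TFPI2, a protease inhibitor that overlaps GNGT1, had 0.10 under vemurafenib, which was not called, and −1.0 under trametinib. The genes with the more negative effect were ZNF488, FAM135B, RUBCNL, SH3TC2, SORL1 and RNF152. Their effects were −0.43, 0.93, 0.52, 1.24, 1.74 and −1.55 under vemurafenib, and 1.32, 2.55, 2.12, 2.67, 3.14 and −0.27 under trametinib, in the same order. SORL1, a sorting receptor, had 10.5 to 13.5 CPM in knockout libraries and 3.43 to 3.58 CPM in control libraries under vemurafenib.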

How the data were processed

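Gene expression was measured by polyA RNA sequencing in 27 libraries. The authors deposited 1 table of raw whole-number counts per gene, which were not normalized, and the submitters' processing notes name bcl2fastq, HISAT2, HTSeq and hg38, without versions. The sources used here do not give the annotation release, the strand setting or the guide sequences. Gene types and positions came from GENCODE 29, where all 58721 gene rows were found, and promoters from RefSeq on GRCh38.p14. Besides the overlaps given with their genes, C3, C4A, CIITA, HSPB8, STARD4, NDUFA1 and ANGPTL4 overlap another annotated gene. Its counts were at least 10% of their own.

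Counts were tested with edgeR 4.0.16 (R 4.3.3, limma 3.58.1): TMM factors, filterByExpr, and the robust quasi-likelihood test on all 27 libraries, with 1 mean for each of 9 groups (18 residual degrees of freedom). The filter left 25199 genes. Both guides were averaged and the control subtracted to give the knockout effect, and differences between treatments were interactions in the same fit. A gene was called at a Benjamini-Hochberg adjusted p under 0.05 over all genes tested, and every call and adjusted p in the text comes from this test. CPM are edgeR's, with TMM, and log2 fold changes carry standard errors. Counts of 0 were set against a floor of 3 reads over the control libraries, and intervals cover counting error only. The script was tested on simulated data. Replicate numbers did not pair the libraries: deviations from group means of libraries with the same number correlated between −0.037 and 0.036. Alternatives were DESeq2 1.42.0, voom, other scalings, no filter, each guide alone, the 9 vemurafenib libraries alone, the replicate number as a block, and each library left out. Scaling by library totals was chosen after seeing the data.

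The text names the 12 largest rises and falls among protein-coding genes with a symbol that average at least 1 log2-CPM under vemurafenib, were called in the same direction with each guide and had no overlap between knockout and control libraries. It also names 2 to 5 called genes with the largest change from each list described, TADA2B, DUSP6, SPRY4, CCND1, MITF, SOX10, NGFR, AXL and EGFR, and the 6 largest differences each way from DMSO and from trametinib. A few of the genes picked this way are not reported here. Other genes named, such as LAMB3, KRT8, TIMP1, CD274 and the members of a list that ran against it, were chosen after their values were seen. Members and lists were chosen with earlier results of these data known.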

Additional observations from a re-analysis of the deposited data

Results flagged for a closer look

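The knockout effect differed between vemurafenib and DMSO by more than 2-fold, with an adjusted p under 0.05 by edgeR's interaction test, for each gene named here; these genes lead the knockout effect or a gene list. Each value here is the log2 knockout effect under vemurafenib minus that in DMSO, so a negative value can stand for a rise that was smaller under the drug, a fall that was larger, or a change of direction.

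Among the leading genes, the difference was 2.69 for ANKRD1, 1.67 for SGMS2 and 1.15 for FAT3. It was −1.54 for DCT, −1.59 for PCSK2, −1.85 for WIPF3, −1.92 for CD36, −2.00 for UCN2, −2.56 for ANGPTL7, −1.74 for RIMS2, −1.73 for RGS8 and −1.32 for IL24. FAT3 had the smaller fall under vemurafenib, while the falls of DCT, PCSK2 and CD36 were larger there. ANGPTL7 averaged at most 0.065 CPM in either genotype in DMSO, so its difference is less certain.

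Pigment cell and melanoma state genes gave −5.91 for TYR, which rests on few reads, −1.67 for CITED1, −3.19 for TRPM1 and 3.67 for ROR2. TRPM1 averaged 0.00895 CPM in control cells in DMSO, so its difference rests on few reads too. AP-1 genes gave −2.91 for JUN, −2.22 for FOS, −2.55 for ATF3 and −2.04 for FOSL2. JUN, ATF3 and FOSL2 had effects of −2.28, −1.97 and −1.48 under vemurafenib, and of 0.64, 0.58 and 0.56 in DMSO. For the acetyltransferase KAT2B the difference was −1.35. Among genes of MAPK output and the cell cycle the difference was 2.54 for SPRY1, 1.38 for SPRY4, 1.18 for CCND1, 2.34 for E2F2, 2.06 for MCM10 and 1.34 for E2F1. In the BCL2 family PMAIP1 had 1.78 and BCL2A1 −1.61.

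Interferon and antigen presentation genes gave −2.75 for XAF1, −3.23 for RSAD2, −1.53 for OASL, −1.11 for CTSS and 1.26 for BST2. Control cells in DMSO averaged only 0.0179 CPM of XAF1 and 0.092 CPM of RSAD2, and both differences carry wide errors. RSAD2 rose by 2.51 under vemurafenib and by 5.74 in DMSO. The complement genes C4B and CFB had 1.01 and 1.04, and the costimulatory genes ICOSLG and TNFRSF9 had 3.84 and −1.51. ICOSLG had only 2 reads in the control libraries under vemurafenib.

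Protease, matrix and adhesion genes gave 2.73 for MMP13, 1.61 for MMP1, −1.66 for COL11A1, 2.02 for COL13A1, −1.51 for COL8A1, 3.24 for ITGA8, 1.27 for ITGA9, 2.07 for KRT19 and 1.22 for PKP2. MMP13, ITGA8 and KRT19 had at most 0.139 CPM in control libraries under vemurafenib. Targets of YAP and TGF-beta gave 1.86 for IGFBP3, 1.57 for CCN1, 1.79 for INHBA, −1.41 for GADD45B, −3.47 for CCN3 and −2.70 for PMEPA1. CCN3 and PMEPA1 had effects of −1.27 and −1.65 under vemurafenib, and of 2.20 and 1.04 in DMSO. Receptors and growth factors gave −1.75 for ERBB4, −2.18 for FGFR2 and 1.38 for VEGFC. The metabolic and stress genes PPARGC1A, HSPA1B and ODC1 had −1.48, 1.37 and 1.23.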

How the results depend on the processing

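The counts of genes called in each comparison stayed within 1.5 times their main values under every alternative run. Leaving out in turn each library that enters a comparison gave 6365 to 6928 genes higher, 6481 to 7138 lower, 2041 to 2146 at least 2-fold higher and 1165 to 1277 at least 2-fold lower. It gave 3217 to 3979 genes that differed between the guides, 10073 to 10812 that differed from DMSO and 1050 to 1661 that differed from trametinib. With the replicate block, 6842 genes were higher and 7107 lower, 2127 and 1197 of them at least 2-fold, 3967 differed between the guides, 10649 from DMSO and 1443 from trametinib, and no count moved by over 1.5 times. The mitochondrial share kept its direction, with differences of 1.13 to 1.22 percentage points. Without control replicate 1, 2 or 3 the differences were 1.14, 1.20 and 1.16, and the exact p of 0.0714 was the smallest that 28 splits allow. Of the named genes, TYR, CSF2, CDH1 and SPRY4 lost their call under at least 1 alternative. Library totals without TMM, added after seeing the data, moved the balance of calls to 64.6% higher. Depth limits genes with few reads in the control libraries, whose fitted changes carry wider errors. They include MMP10, TNFSF15, CSF2, ICOSLG and TYR, and also KIT, PLAU, MMP13, ITGA8, KRT19, LOXL1 and POSTN.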
